A study of Mus musculus with 4 samples.

Results

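The 10 genes described here encode receptors of the signalling lymphocytic activation molecule (SLAM) family and the small adaptors that bind them, out of 22180 genes measured. There were 7 receptors (Slamf7, Slamf8, Slamf9, Ly9, Cd84, Cd48 and Cd244) and 3 adaptors (Sh2d1a, Sh2d1b1 and Sh2d1b2). The genes were chosen with their measured strain values known, so every strain value of theirs is a description, and the calls that the fit over all genes made among them are counted but not read as a test. Each gene was read by 1 probe set with a single symbol, and 0 probe sets shared with another gene named any of them. Cd244 stands in the array annotation under its current symbol, Cd244a.

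The arrays read RNA of peritoneal macrophages from wild type C57BL/6 mice (B6, substrain not given in the labels) and wild type 129S6/SvEvTac mice (129S6), 3 months old and on regular chow, in a study of mouse loci that affect plaque size in the aortic root. Thioglycollate medium (1 ml at 4%), an irritant that draws macrophages into the peritoneum, was injected 4 days before lavage with 10 ml of buffer, and the cells were cultured overnight in medium with 10% serum. There were 4 Affymetrix whole-transcript arrays, 1 for each strain and sex (B6 female, B6 male, 129S6 female, 129S6 male), and per the labels each array carried RNA pooled from 3 mice; the methods text gives a larger pool. Within a strain the spread is therefore that of a female pool against a male pool, with no replicate pool of either sex.

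SLAM receptors are immunoglobulin-type surface proteins of blood cells, and most of them bind a copy of themselves on a neighbouring cell. Cd48 and Cd244 are the exception, since Cd48, held in the membrane by a lipid anchor, is the ligand of Cd244. Tyrosine motifs in the tails of most of the receptors recruit SH2-domain adaptors: SAP (encoded by Sh2d1a), which brings in the kinase Fyn, EAT-2 (Sh2d1b1), and ERT (Sh2d1b2), a rodent relative of EAT-2. Without an adaptor, the same motifs can bind inhibitory phosphatases. Slamf8 and Slamf9 have short tails without these motifs. In macrophages, Slamf7 is known for a role in the engulfment of tumour cells together with the integrin Mac-1, and Slamf8 as a brake on the NADPH oxidase of phagosomes.

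The largest strain differences among the 10 genes were in an adaptor, Sh2d1b1, and a receptor, Slamf8, both higher in B6. Their promoters are shown because these genes carried the strain difference, with the promoter of Sh2d1b2 because it is a close copy of that of Sh2d1b1 on the same chromosome. The letters are the 250 bases before the RefSeq start on the GRCm38.p6 assembly, a C57BL/6J sequence, and the 129S6 letters were not examined. The promoter of Sh2d1b1 lies at chr1:170277068-170277317 on the plus strand, Sh2d1b2 at chr1:170232621-170232870 on the plus strand and Slamf8 at chr1:172590569-172590818 on the minus strand. Capitals mark the longest run of bases that the Sh2d1b1 and Sh2d1b2 promoters share, and in Slamf8 a match to an interferon response element.
Sh2d1b1: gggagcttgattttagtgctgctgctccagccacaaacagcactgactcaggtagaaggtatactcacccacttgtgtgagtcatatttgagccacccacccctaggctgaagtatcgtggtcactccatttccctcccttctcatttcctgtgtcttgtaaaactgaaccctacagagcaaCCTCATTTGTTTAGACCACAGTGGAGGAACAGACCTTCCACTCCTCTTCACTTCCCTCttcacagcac
Sh2d1b2: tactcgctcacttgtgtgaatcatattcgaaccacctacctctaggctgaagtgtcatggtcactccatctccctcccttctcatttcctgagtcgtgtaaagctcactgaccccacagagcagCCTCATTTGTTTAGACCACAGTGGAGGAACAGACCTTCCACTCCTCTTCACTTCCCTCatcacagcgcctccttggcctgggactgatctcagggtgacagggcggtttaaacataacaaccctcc
Slamf8: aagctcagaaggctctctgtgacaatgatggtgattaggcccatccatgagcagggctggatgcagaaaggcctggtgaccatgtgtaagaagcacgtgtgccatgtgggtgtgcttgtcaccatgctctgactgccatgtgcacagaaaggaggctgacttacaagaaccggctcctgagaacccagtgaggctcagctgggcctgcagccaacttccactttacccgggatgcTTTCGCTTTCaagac

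Aligned to each other, the Sh2d1b1 and Sh2d1b2 promoters were identical at 171 of 191 positions (89.5%), and the shared run was 58 bases long, beginning 68 bases before the start of Sh2d1b1 and 126 bases before the start of Sh2d1b2. RefSeq promoters were found for 8 of the 10 genes. Among these, TGANTCA with any base at N, a looser pattern than the AP-1 core, was found in 5 (Sh2d1b1, Sh2d1b2, Slamf7, Cd84 and Cd244). It was in 6.87% of 27025 mouse promoters of the same length. The AP-1 core has C or G at N, and the Sh2d1b2 match, TGAATCA, has A. The Sh2d1b1 and Sh2d1b2 promoters are close copies, so their matches are not separate cases. GAGGAA, the core bound by the myeloid factor PU.1, was in 3 (Sh2d1b1, Sh2d1b2 and Slamf9), against 23.1% of all promoters. The interferon response element, searched as 2 copies of GAAA with any 2 bases between them, was in Slamf8 alone among the 8, against 3.04% of all, and TTCNNNGAA, a STAT site, was in 0 of the 8, against 7.18% of all. Each motif was searched on both strands, and a match is a run of letters and not a measured binding site.

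Of the adaptors, Sh2d1b1 was the one that separated the strains by a wide margin. EAT-2, its product, is best known from natural killer (NK) cells and is also found in macrophages and dendritic cells. Its log2 intensity was 7.15 in the B6 female pool and 8.42 in the B6 male pool, against 4.17 in the 129S6 female pool and 4.25 in the 129S6 male pool. Both B6 arrays stood far above both 129S6 arrays, and the male B6 pool was the higher of the B6 pair. Its mean was 7.79 ± 0.90 in B6 and 4.21 ± 0.05 in 129S6 (SD, n = 2 each), a difference of 3.58 ± 0.33 (SE of the fit) on the log2 scale or 11.9-fold. Sh2d1b1 ranked 13 among the 22180 genes in the size of its difference toward B6. In bulk RNA of this kind, fewer cells of a type and less RNA per cell cannot be told apart.

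As a guide to the background of the array, 3 Y-linked genes (Kdm5d, Eif2s3y and Uty) read 2.24 to 4.71 in the female pools, and a value at or under 4.71 is called at background here, although probe sets differ in their background. Sh2d1b1 was at background in both 129S6 arrays. Set against the top of that range in place of its own 129S6 reading, its B6 mean was 8.46-fold higher. This is not a lower bound, since the range comes from other probe sets. The strain difference of Sh2d1b1 was 2.98 between the female pools and 4.18 between the male pools. The other adaptors gave no reading above background in any of the 4 arrays. Sh2d1b2 read 3.04 in each of the B6 female and B6 male pools, against 3.48 in the 129S6 female pool and 2.59 in the 129S6 male pool. The B6 values fell between the 129S6 values, so the strains overlapped. The difference was 0.00 ± 0.27, being -0.44 between the female pools and 0.45 between the male pools. Probe sequences were not used here. Whether the Sh2d1b1 probe set also reads Sh2d1b2 RNA, and how well each probe set matches 129S6 transcripts, was not tested.

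Sh2d1a, on chromosome X and the only one of the 10 genes outside chromosome 1, encodes SAP, the adaptor of T and NK cells whose loss causes a human X-linked lymphoproliferative disease. It read 4.39 and 4.28 in the B6 female and male pools, against 4.28 and 4.21 in the 129S6 female and male pools. All 4 values lay within the background range and close together, with a difference of 0.09 ± 0.15.

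**Figure D1:**
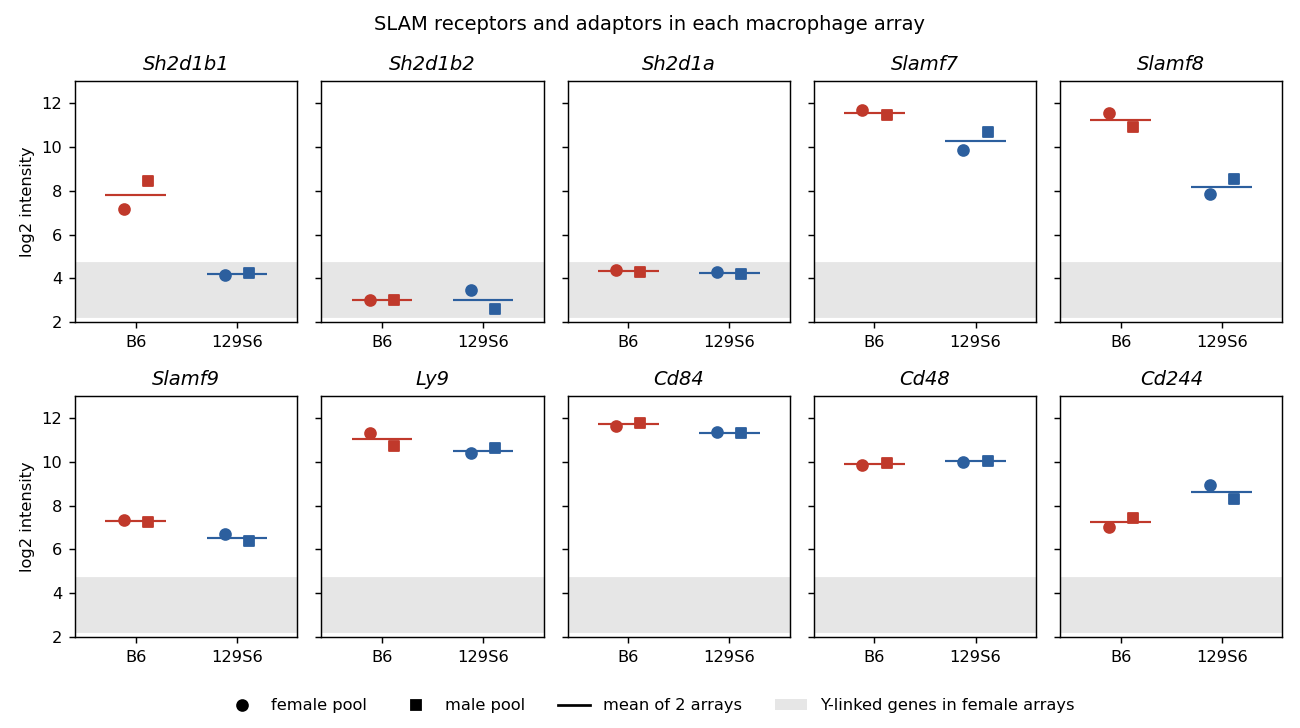
Log2 intensity (y axis) of each of the 10 genes in the B6 arrays (left in each panel) and the 129S6 arrays (right). Circles are female pools, squares male pools, lines the mean of the 2 arrays of a strain, and the grey band the range of the Y-linked genes in the female arrays (2.24 to 4.71). Sh2d1b1 stands at 7.15 and 8.42 in B6 and lies in the band in 129S6; Sh2d1b2 and Sh2d1a lie in the band in every array.

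Among the receptors, Slamf8 was the furthest apart between the strains. Its log2 intensity was 11.52 in B6 females and 10.89 in B6 males, against 7.84 in 129S6 females and 8.53 in 129S6 males. The strains did not overlap, and all 4 arrays were well above background. The mean was 11.21 ± 0.44 in B6 and 8.19 ± 0.49 in 129S6 (SD, n = 2 each), with a difference of 3.02 ± 0.36 or 8.11-fold, which ranked 24 among all genes toward B6. The gap was 3.68 between the female pools and 2.36 between the male pools.

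Slamf7, also called CRACC or CS1, was high in every pool and higher in B6, at 11.66 in females and 11.45 in males, against 9.87 in 129S6 females and 10.67 in 129S6 males. The B6 pair lay close together while the 129S6 female pool was the lowest of the 4. The difference was 1.29 ± 0.29 or 2.44-fold, and it was 1.79 in females and 0.79 in males. Slamf9 read 7.35 in B6 females and 7.26 in B6 males, against 6.68 in 129S6 females and 6.40 in 129S6 males. The groups were apart by a smaller step of 0.76 ± 0.16 or 1.70-fold, of similar size in females (0.67) and in males (0.86).

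Ly9 (CD229) and Cd84, which bind their own kind on neighbouring lymphocytes and myeloid cells, differed less. Ly9 read 11.33 and 10.72 in B6 females and males, against 10.41 and 10.61 in 129S6 females and males. The B6 male pool lay just above the 129S6 male pool, and the difference of 0.52 ± 0.25 was 0.92 in females and 0.11 in males. Cd84 read 11.65 and 11.75 in B6 females and males, against 11.35 and 11.31 in 129S6 females and males. Its pools were tight within each strain, and the difference was 0.37 ± 0.16 or 1.29-fold.

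In the ligand and receptor pair Cd48 and Cd244, both genes were lower in B6, Cd48 by little. Cd48 read 9.84 and 9.95 in B6 females and males, against 9.98 and 10.05 in 129S6 females and males. The 4 values spanned a narrow range, and the difference was -0.11 ± 0.15. Cd244 (2B4), a receptor of NK cells and myeloid cells that can activate or inhibit, read 7.02 in B6 females and 7.44 in B6 males, against 8.94 in 129S6 females and 8.29 in 129S6 males. Both B6 arrays were below both 129S6 arrays. The mean was 7.23 ± 0.29 in B6 and 8.61 ± 0.46 in 129S6 (SD, n = 2 each), a difference of -1.38 ± 0.30, which is 2.60-fold lower in B6. It was -1.91 between the female pools and -0.85 between the male pools.

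In order of the difference, the genes ran Sh2d1b1, Slamf8, Slamf7, Slamf9, Ly9, Cd84, Sh2d1a, Sh2d1b2, Cd48 and Cd244. The step from Sh2d1b1 to Slamf8 was smaller than the disagreement of either gene between the sexes, and so was the step from Ly9 to Cd84 beside the spread of Ly9. Counts over the 10 genes are given beside the share of all 22180 genes, and nothing is read from them because the genes were selected on this contrast. With limma, 1 of the 10 (Sh2d1b1) had an adjusted p under 0.05, against 0.852% of all genes (75 higher and 114 lower in B6), and without the 129S6 female array Sh2d1b1 was no longer called (difference 3.54). A fitted difference of at least 2-fold was present in 4 of the 10 (3 higher and 1 lower in B6), against 4.65% of all genes. Sh2d1b1 and Slamf8 were at least 2-fold higher in B6 in both sexes, which held in either direction for 2.77% of all genes. The B6 and 129S6 arrays did not overlap for 9 of the 10 (7 higher and 2 lower in B6), against 48.9% of all genes. These 9 include Sh2d1a, at background in every array, and Cd48, whose difference was only -0.11 ± 0.15. The median difference of the 10 genes was 0.44, and that of all genes was -0.02.

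**Figure D2:**
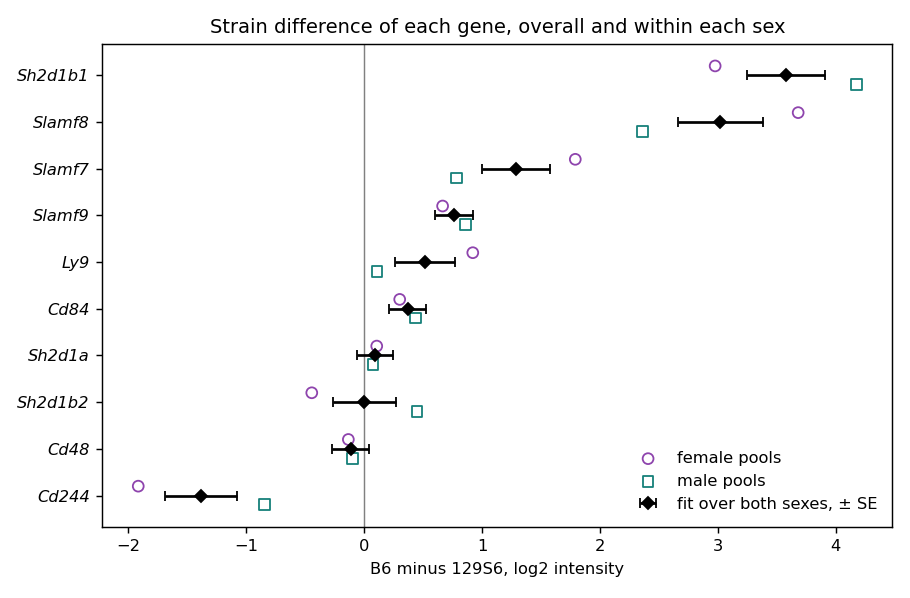
Difference in log2 intensity, B6 minus 129S6 (x axis), for each of the 10 genes, ordered from the highest. Open circles are female pools, open squares male pools, and black diamonds the fit over both sexes with its SE. Sh2d1b1 (3.58) and Slamf8 (3.02) lie far to the right of the others, Cd244 (-1.38) lies to the left, and Sh2d1b2 is the gene whose female and male pools fall on opposite sides of 0.

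Sex was not used to choose the genes, so the difference between male and female pools was tested. None of the 10 genes passed the limma test for sex (0 with an adjusted p under 0.05 and 0 with an unadjusted p under 0.05), against 0.0135% of all genes, which is 3 genes, with 1158 of 22180 at an unadjusted p under 0.05. The largest sex difference was again that of Sh2d1b1, with a mean of 6.34 in males and 5.66 in females, a difference of 0.67 ± 0.33 (adjusted p = 0.860). It was 1.27 in B6 and 0.08 in 129S6, where the gene was at background. Sh2d1b2 had a male minus female difference of -0.44 ± 0.27 (adjusted p = 0.860) and Slamf7 one of 0.29 ± 0.29 (adjusted p = 0.898). The other 7 genes ranged from -0.20 (Ly9) to 0.09 (Cd48), with adjusted p from 0.882 to 0.993. Even Y-linked Kdm5d, with a male minus female difference of 5.30, was not called by the same limma test (adjusted p = 0.0725). The test could thus hardly call differences as small as those of the 10 genes. Their 0 calls do not show equal levels in males and females. Whether the sex difference itself differed between the strains cannot be tested with 1 array in each class.

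**Figure D3:**
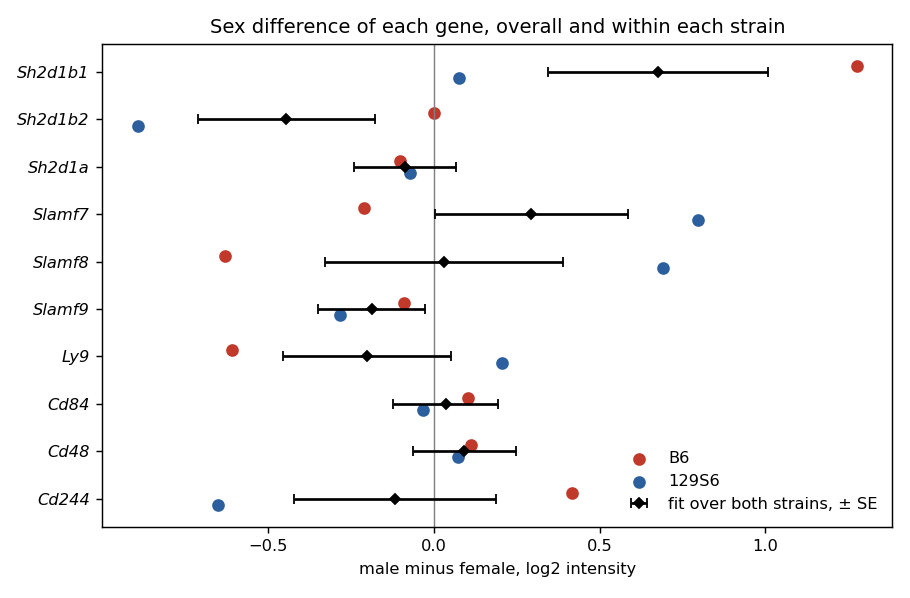
Difference in log2 intensity, male minus female (x axis), for each of the 10 genes. Red circles are the B6 pools, blue circles the 129S6 pools, and black diamonds the fit over both strains with its SE. The fitted differences lie between -0.44 (Sh2d1b2) and 0.67 (Sh2d1b1). For Sh2d1b2, Slamf7, Slamf8, Ly9, Cd84 and Cd244 the strains fall on opposite sides of 0, though Sh2d1b2 in B6 is 0.00.

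The remaining genes of the family were read as well. Slamf1, the founding receptor and a known activator of the phagosomal oxidase, read 4.80 and 4.58 in B6 females and males, against 4.43 and 4.50 in 129S6 females and males, at or near background in each pool (difference 0.23 ± 0.17, adjusted p = 0.563). Slamf6 (Ly108) read 8.05 in B6 females and 5.85 in B6 males, against 8.73 in 129S6 females and 8.64 in 129S6 males. The B6 male pool stood apart from the other 3, and the difference of -1.74 ± 0.54 was not called (adjusted p = 0.251). Leaving out the B6 female array gave -2.84 (adjusted p = 0.00757), and leaving out the B6 male array gave -0.63 (adjusted p = 0.309). A second Slamf6 probe set, near background in every array, gave 4.02 and 3.94 in B6 females and males, against 3.57 and 3.90 in 129S6 females and males. Cd2, the T cell relative that binds Cd48, read 3.63 and 4.17 in B6 females and males, against 3.41 and 3.59 in 129S6 females and males, all at background. Cd58 was not analysed here.

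The RefSeq order of chromosome 1 places 9 of the 10 genes in a stretch that, with 10 annotated genes on either side, holds 149 genes, of which 74 were measured. The 65 measured neighbours include Slamf1 and Slamf6. Of these 65, 5 were at least 2-fold apart with the same sign in females and males (7.69%), against 2.77% of all genes, 2 of them higher and 3 lower in B6. The neighbours' median difference was 0.08. Higher in B6 was Vsig8, the measured gene next to Slamf8, at 7.29 and 7.19 in B6 females and males, against 5.17 and 4.92 in 129S6 females and males (difference 2.19 ± 0.16, adjusted p = 0.0401). Its strains did not overlap, as those of Slamf8 did not. Fcgr4, an activating receptor for immunoglobulin G, read 9.18 and 9.63 in B6 females and males, against 7.61 and 7.23 in 129S6 females and males, and did not pass (difference 1.99 ± 0.25, adjusted p = 0.0711).

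On the other side, Ddr2, a collagen receptor of fibroblasts, was lower in B6, at 3.93 and 4.62 in females and males, against 6.36 and 6.64 in 129S6 females and males (difference -2.23, adjusted p = 0.0427), and it was not called without either the 129S6 female or the 129S6 male array (-2.57 to -1.88 over the arrays left out). Fcrlb, an Fc receptor-like gene, had a difference of -1.39 (adjusted p = 0.115) and Vangl2, a planar cell polarity gene next to Slamf6, one of -1.20 (adjusted p = 0.0717). Genes higher and lower in B6 thus lay side by side along the stretch.

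**Figure D4:**
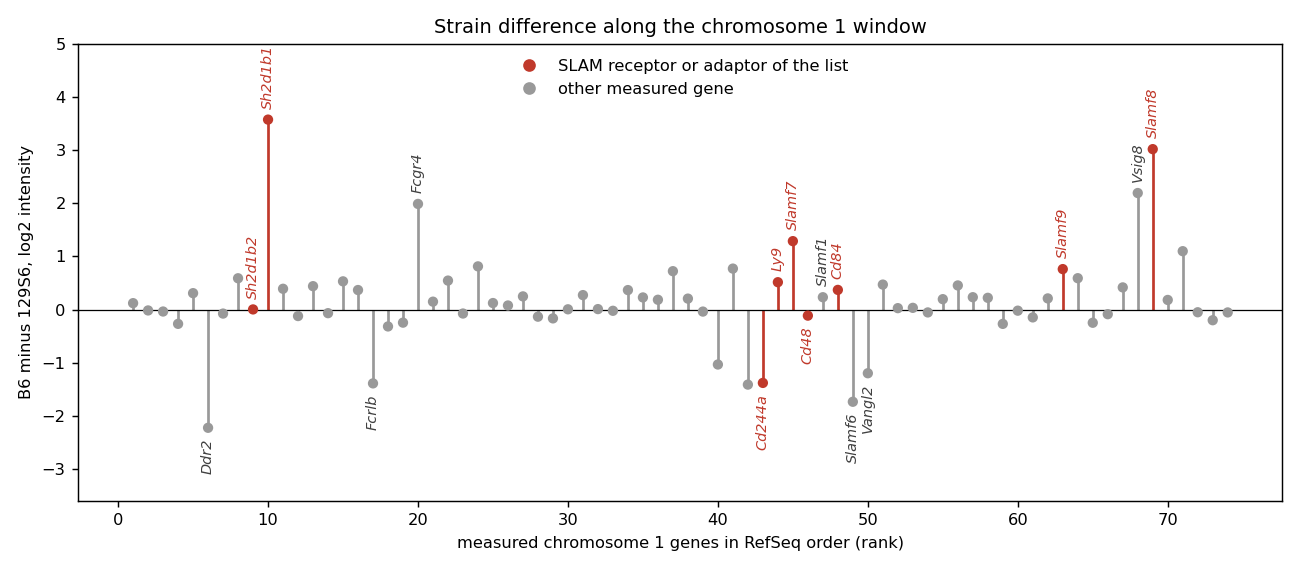
Difference in log2 intensity, B6 minus 129S6 (y axis), of the 74 measured genes of the chromosome 1 window in RefSeq order (x axis, rank). Red marks the SLAM receptors and adaptors of the list and grey the 65 other genes. Sh2d1b1 (3.58) stands next to Sh2d1b2 (0.00), Slamf8 (3.02) stands next to Vsig8 (2.19), and Slamf6 (-1.74) and Vangl2 (-1.20) point the other way beside Cd84 (0.37).

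The molecules that act behind the receptors were compared in the same way. Of 22 measured genes of SLAM signalling (Src-family kinases, the phosphatases Ptpn6, Ptpn11 and Inpp5d, phospholipases and further adaptors), 0 passed the limma test in either direction, against 0.852% of all genes, so a list of this size would seldom hold a call. Their median difference was 0.02. The furthest apart was Fgr, a Src-family kinase of myeloid cells, at 9.71 and 9.01 in B6 females and males, against 10.47 and 10.88 in 129S6 females and males (difference -1.32 ± 0.31, adjusted p = 0.178). Fyn, the partner of SAP, had a difference of 0.02 ± 0.17. The adaptor Lat (0.75) and the exchange factors Vav3 (0.72) and Vav2 (0.43) had the next largest differences, with adjusted p from 0.175 to 0.401. Lyn and Lck were not analysed here.

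Of 15 measured genes of phagocytosis and the phagosome with which the receptors are known to work, 0 passed, against the same 0.852% of all genes, with a median of -0.08. Itgam, the Mac-1 chain that acts with Slamf7 in engulfment, read 10.88 and 11.21 in B6 females and males, against 12.06 and 11.77 in 129S6 females and males (difference -0.87 ± 0.22, adjusted p = 0.192). Sirpa, the receptor for the Cd47 signal that restrains engulfment, read 12.13 and 12.08 in B6 females and males, against 11.30 and 11.39 in 129S6 females and males (difference 0.76 ± 0.16, adjusted p = 0.148). Both differences were smaller than that of Slamf7, and they were opposite in sign. The oxidase subunit Ncf4 had a difference of -0.61 and the lipid kinase Pik3c3, which works with Slamf1 at the phagosome, one of 0.43. The oxidase subunits Cybb (-0.11) and Cyba (-0.08) were nearly level between the strains.

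The 5 genes whose gene-centred values over the 4 arrays were nearest to those of Sh2d1b1, by Euclidean distance in log2 units, were Fam83f (0.49), Gpr137b-ps (0.59), Cdkn1c (0.72), C77080 (0.73) and Mamdc2 (0.77). Their strain differences, from 3.06 (Cdkn1c) to 4.34 (Mamdc2), are of the size that this choice fixes.

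The labelled cell type and other cells were checked by marker genes, since SLAM receptors are also genes of lymphocytes. Of 9 measured macrophage markers, 0 passed the limma test for strain, against 0.852% of all genes. Marker lists of this size would seldom hold a call, so 0 called in a list does not show equal cell content. The summed intensity of the macrophage markers on the log2 scale was 14.45 to 14.48 in B6 and 14.76 to 14.90 in 129S6. The largest differences in this list were those of Fcgr1 (1.72, adjusted p = 0.207), Cd14 (-1.65, adjusted p = 0.0765), Itgam (-0.87) and Mertk (0.78, adjusted p = 0.156). The 9 NK cell markers, where EAT-2 is best known, had 0 called and 6 at background in every array, Klrk1, Gzma and Eomes among them. Both B6 arrays were above both 129S6 arrays for 3, Ncr1 (0.49, at background), Nkg7 (0.42) and Gzma (0.24). They were below for 2, Klrk1 (-0.26) and Tbx21 (-0.24). The sum of the 9 was 7.54 to 7.64 in B6 and 7.45 to 7.53 in 129S6. With most of the list at background, this sum cannot show the NK cell content. Of 8 T cell markers, 0 were called and Cd3d and Cd3g were at background, and the sum was 9.98 to 10.21 in B6 and 9.03 to 9.65 in 129S6. Most of this sum came from Lat (0.75), and Cd28 had the largest difference of the list, 1.61 (1.00 in females and 2.22 in males, adjusted p = 0.151). Of 8 B cell markers 0 were called, with a sum of 10.43 to 10.79 in B6 and 9.64 in each 129S6 pool, most of it from Cd22 (difference 1.29, adjusted p = 0.0794). The median difference of the B cell list was -0.17, and 4 of its genes, Cd79a (-0.73), Ms4a1 (-0.64), Blk (-0.61) and Cd79b (-0.16), had both B6 arrays below both 129S6 arrays.

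Markers of resident peritoneal macrophages and of fibroblasts went with the strain in the same arrays. Of 9 resident macrophage markers, 4 were called lower in B6 (Serpinb2 by -5.26, Alox15 by -4.09, Cxcl13 by -3.30 and Prg4 by -2.28) and 0 higher, against 0.852% of all genes called in either direction. The summed level of the 9 was 10.25 to 10.58 in B6 and 13.19 to 13.74 in 129S6. Without the 129S6 female or the 129S6 male array, Serpinb2 was not called (-6.35 to -4.18 over the arrays left out). Of 8 fibroblast markers, 3 were called lower in B6 (Pdgfra by -3.01, Dcn by -2.67 and Sparc by -2.61), against the same 0.852% of all genes. The summed level of the 8 was 8.98 to 9.65 in B6 and 11.71 to 11.85 in 129S6. Their part in the strain values of the SLAM genes was not tested. The eosinophil list held 1 called gene, Siglecf (1.88, adjusted p = 0.0438, not called without the 129S6 female array), with the other 5 at background. The plasma cell (6 genes), dendritic cell (7), neutrophil (10) and mast cell (8) lists held 0 called genes. Of the dendritic cell markers, 5 had both B6 arrays below both 129S6 arrays, among them Ccr7 (-1.02, adjusted p = 0.0984), Itgax (-0.78) and Flt3 (-0.70). Xcr1 (0.63) went the other way, and the sum was 11.07 to 11.18 in B6 and 11.80 to 11.98 in 129S6. Over all genes, the arrays of the strains did not overlap for 48.9%, in either direction. In the neutrophil, mast cell and plasma cell lists the largest differences were S100a8 (-1.40, adjusted p = 0.0585), Cpa3 (1.11) and Sdc1 (0.83).

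**Figure D5:**
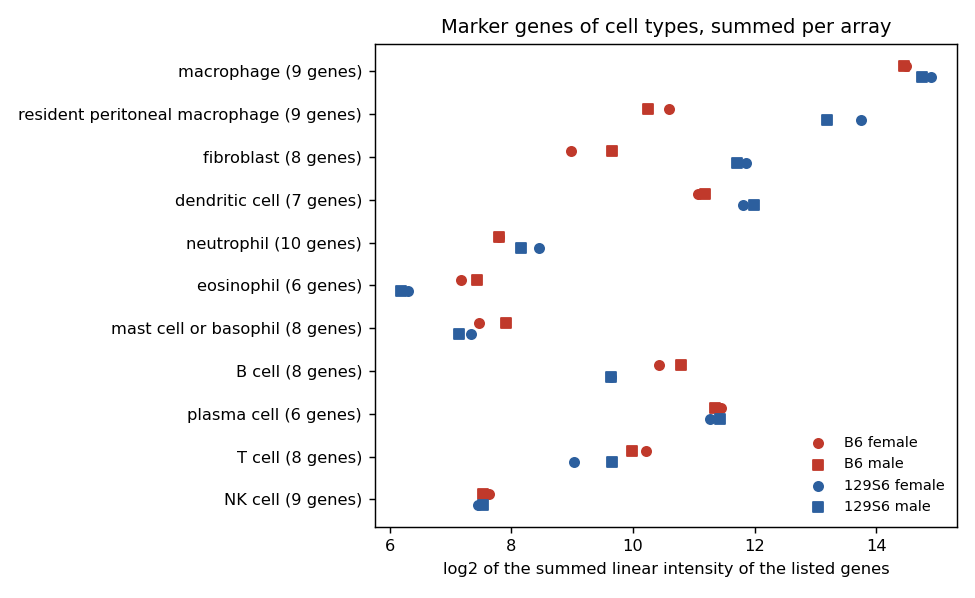
Log2 of the summed linear intensity (x axis) of the marker genes of each cell type (y axis) in each array, B6 in red above 129S6 in blue, circles for female and squares for male pools. The NK cell sums, with 6 of the 9 genes at background, lie between 7.45 and 7.64 in all arrays. The resident peritoneal macrophage sums are 10.25 to 10.58 in B6 and 13.19 to 13.74 in 129S6.

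The arrays matched their labels: Xist read 11.86 to 11.88 in the female pools and 3.91 to 4.05 in the male pools, and Ifi202b, a gene known to be poorly expressed in B6, differed by -5.17. Across genes, which are not independent replicates, Pearson's r was 0.988 between the B6 arrays, 0.989 between the 129S6 arrays and 0.969 to 0.980 between arrays of different strains.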

How the data were processed

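The deposited table held log2 intensities, 1 per probe set and array, deposited by the authors, who processed the scans (cDNA from 250 ng of total RNA) in Affymetrix Expression Console. The version of the program, its summarization and its background correction are not given in the sources used here. The array medians, 4.85 to 4.87, were nearly equal, and the values were used without further scaling. Of 41345 probe sets, the annotation gave 23521 a single symbol and 1820 several, and 16004 were not listed. The single-symbol probe set with the highest mean was kept for each gene (1082 genes had more than 1), which left 22180 genes. RefSeq gene numbers matched 23328 of the single-symbol probe sets and changed 0 symbols.

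Strain (B6 minus 129S6) and sex (male minus female) were fitted as additive terms over the 4 arrays by lmFit and eBayes of limma 3.58.1 (R 4.3.3). The prior added 3.18 degrees of freedom to the 1 that remained, so the SE and the p-values lean on spread shared across genes. Benjamini-Hochberg adjustment ran over all genes, with an adjusted p under 0.05 as the threshold of a call. Arrays give no depth, and their number limits the precision.

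The 10 genes and all gene lists were chosen with earlier results of these data known. The genes named were the 10 members, the rest of the family, of each other list the called genes and up to 4 with the largest strain difference, the chromosome 1 neighbours at least 2-fold apart in both sexes, the 5 genes nearest to Sh2d1b1, and sex and strain checks; Fyn, Cybb and Cyba, and marker genes named as examples, were added after their values were seen. Of the checks, Ddx3y was not analysed here. The alternatives were a model with strain or sex alone, a prior that follows the level, brighter genes only, quantile normalization, the mean of a gene's probe sets, all probe sets, and each array left out.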

Additional observations from a re-analysis of the deposited data

Results flagged for a closer look

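The difference between the strains ran in opposite directions in the sexes for Sh2d1b2, a gene at background in every array: the female difference minus the male difference was -0.89. The male minus female difference had opposite signs in the strains for 6 of the 10 genes, and the share over all genes was not counted. As the B6 value minus the 129S6 value, this difference was -1.32 for Slamf8, 1.07 for Cd244, -1.01 for Slamf7, 0.89 for Sh2d1b2, -0.81 for Ly9 and 0.14 for Cd84. In B6 it was 0.00 for Sh2d1b2, and for Cd84 it was 0.10 in B6 and -0.03 in 129S6, so these signs mean little. Each of the flagged differences rests on 1 array for each strain and sex, and none was tested.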

How the results depend on the processing

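The number of genes called between the strains, 189, was 431 with strain alone in the model, 1256 with a prior that follows the level, 589 among the brighter genes, 81 after quantile normalization, 0 when all 41345 probe sets were tested (5707 at an unadjusted p under 0.05, smallest adjusted p 0.0982), and 84 to 564 with an array left out (84 without 129S6 female, 564 without B6 female, 321 without 129S6 male). The 3 genes called between the sexes became 1 with sex alone, 5 with the prior that follows the level, 1 after quantile normalization, 0 with all probe sets and 0 to 0 with an array left out. Sh2d1b1 was called between the strains in 7 of 10 alternatives, not after quantile normalization, with all probe sets or without the 129S6 female array, and Slamf8 in 6 of 10. Testing all probe sets ended every call between the strains, and quantile normalization ended those of Alox15, Prg4, Pdgfra, Sparc, Siglecf and Ddr2. Without the 129S6 female array Fam83f, Cdkn1c and Mamdc2 were not called. Over the arrays left out, Sh2d1b1 differed by 2.94 to 4.21, Slamf8 by 2.67 to 3.37, Slamf7 by 0.89 to 1.69, Ly9 by 0.21 to 0.82, Sh2d1b2 by -0.44 to 0.45 and Cd244 by -1.71 to -1.06. The number of the 10 genes at least 2-fold apart stayed at 3 or 4, and of those whose strains did not overlap at 8 to 10.

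The sex differences of the 10 genes were called in 0 of 98 alternatives and changed sign in 13, all with an array left out, where sex was fitted alone over unequal strains: -1.41 to 2.76 for Sh2d1b1, -0.60 to 1.19 for Slamf7, -1.81 to 1.87 for Slamf8, -0.62 to 0.24 for Slamf9, -0.66 to 0.26 for Ly9, -0.18 to 0.26 for Cd84 and -1.07 to 0.84 for Cd244. With 3 arrays the lone array of a strain was assumed to vary like the other strain. The labels number no replicates, and pools of the same sex were paired through the sex term; the fit without this pairing is the one with strain alone. Readings at background, as for Sh2d1b2, Sh2d1a and Sh2d1b1 in 129S6, limit any fold change.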
